A study of Mus musculus with 6 samples.

Results

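The mitochondrial respiratory chain was followed through 85 of the 23699 gene rows, those whose symbol begins as a nuclear gene of complex I (Nduf), II (Sdha to Sdhd), III (Uqcr), IV (Cox4 to Cox8) or V (Atp5). Complex I contributed 37 members, complex II 4, complex III 8, complex IV 19 and complex V 17. The choice rested on names alone, so some members are not subunits of the complex their name points to. Ndufa4 and Cox4nb are marked as such where they appear, and all other members are grouped by name only. The chain was expressed at high level in every library. In the mutants, 70 of 83 tested members had a positive log2 fold change, where 38.7% of all rows tested did. Among other rows of at least 30 FPKM with transcripts under 1000 bases, 78.7% did. None of the members' differences passed the test over all genes, and 1 of the 3 mutant libraries did not take part in the shift.

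RNA came from the duodenum of adult mice aged 6 weeks on a mixed background, from the 2 cm next to the stomach. The 3 mutants, named TNint, carried Nkx2.2flox/TN with Villin-Cre/+ and Rosa26Tomato/+. The 3 controls carried Nkx2.2flox/+ without Cre, with Rosa26Tomato/+ in control 1 and control 2 and without it in control 3. TN is known as an allele of Nkx2.2, a transcription factor of enteroendocrine cells, with its tinman domain mutated. Villin drives Cre in the intestinal epithelium, while the libraries hold the whole wall. The TN allele, the loss of the floxed allele and Cre itself came together in the mutants and cannot be told apart here. No litter, sex or lane is given in the labels used, so the p-values measure the spread between these 6 libraries.

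Nkx2-2 was measured at 0.748, 0.744 and 0.666 FPKM in mutants and at 1.0, 1.03 and 1.27 FPKM in controls (log2 fold change −0.54, SE 0.16, limma adjusted p = 0.79), with each mutant below each control. FPKM is a fragment count corrected for the length of the transcript and for the size of the library. The implied depth was 16.88, 25.91 and 21.97 M (megareads) in mutants 1 to 3 and 14.21, 21.25 and 19.91 M in controls 1 to 3. In a bulk library, fewer cells of a type and less RNA per cell cannot be told apart.

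The respiratory chain passes electrons from NADH (complex I) and succinate (complex II) through ubiquinone to complex III, and through cytochrome c to complex IV, which reduces oxygen. Complexes I, III and IV pump protons, and complex V, ATP synthase, uses the gradient to make ATP. Absorptive cells of the small intestine spend much of that ATP on sodium-coupled uptake of nutrients. Many subunits are small proteins with short transcripts, and their genes have left many processed copies in the mouse genome, so a read may match both a gene and its copies.

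The members whose deposited count was lowest for their FPKM all had such copies, and the clearest cases are shown first. Each member's GENCODE transcript was divided into all its windows of 50 bases, and each window was looked up letter for letter in the rest of the mm9 genome, beyond 5000 bases from its own locus. Of the 85 members, 42 had no window elsewhere, 8 had at least 50% of their windows elsewhere, and 18 had less than that but at least 10%. The coding sequence of Ndufs5, a small accessory subunit of complex I on chromosome 4, is 321 bases long and differs at 2 bases from a copy on the plus strand at chr16:42955744-42956064 (mm9), an identity of 99.4%. The first 180 coding bases of the gene and of the copy are printed with both differing bases in capitals.

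Ndufs5: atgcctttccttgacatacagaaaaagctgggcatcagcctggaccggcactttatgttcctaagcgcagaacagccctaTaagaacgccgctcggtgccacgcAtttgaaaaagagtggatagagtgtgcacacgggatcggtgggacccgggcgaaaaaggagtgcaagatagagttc
chromosome 16 copy: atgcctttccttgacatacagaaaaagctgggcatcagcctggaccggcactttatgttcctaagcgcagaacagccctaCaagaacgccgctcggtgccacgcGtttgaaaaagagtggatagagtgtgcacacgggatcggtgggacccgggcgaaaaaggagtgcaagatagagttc

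Atp5g2, which encodes the c subunit of the ATP synthase ring, and Atp5l, which encodes its g subunit, have copies with no differing base. The coding sequence of Atp5g2 (441 bases) is found unchanged at chr17:5816200-5816640 on the minus strand, and that of Atp5l (312 bases) at chr5:24087369-24087680 on the minus strand. Atp5l was singled out after its values were seen. The first 120 coding bases of each are printed, identical in gene and copy.

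Atp5g2: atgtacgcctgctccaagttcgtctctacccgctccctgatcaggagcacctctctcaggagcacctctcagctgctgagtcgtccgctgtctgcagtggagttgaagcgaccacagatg
Atp5l: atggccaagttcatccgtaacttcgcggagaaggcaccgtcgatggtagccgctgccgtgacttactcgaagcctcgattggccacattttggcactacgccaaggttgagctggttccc

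The authors deposited FPKM per library and, in a separate table, mean read counts of each group scaled by size factors, and for some copied genes these differ. For each of the 81 members with a mean of at least 1 FPKM, the authors' mean count per FPKM and kilobase was set against that of other single-transcript genes within 20% of its length. Among the 38 members of this kind with no window elsewhere, the value was at least 87.5% of the typical one, with a median of 99.1%. It was below 50% for 6 members, all of them with copies. These were Ndufs5 at 0%, Atp5g2 at 3.37%, Atp5l at 3.38%, Cox7c at 22% and Ndufb4 at 27%, with Atp5g1 at 45%. Ndufb4, an accessory subunit of complex I, was named after its values were seen. A copied sequence did not always go with a low count. Atp5h had 67.9% of its windows elsewhere and a count of 108% of the typical one, and Uqcrb had 61.5% elsewhere and 98.3%, both singled out after their values were seen.

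**Figure D1:**
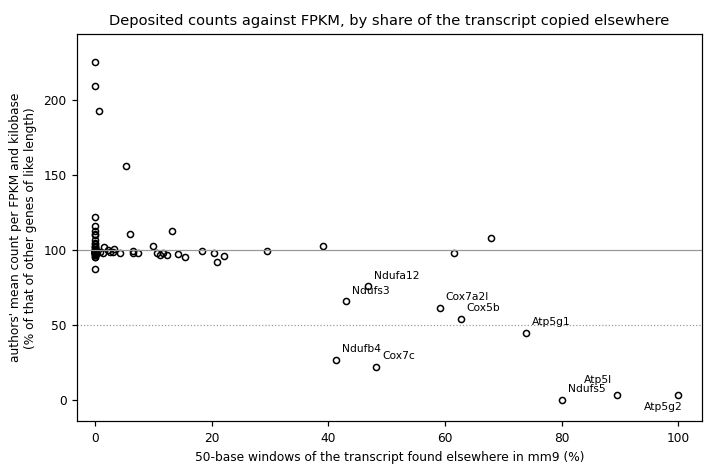
Each circle is 1 of the 81 members with a mean of at least 1 FPKM. The horizontal axis gives the share of its 50-base windows found elsewhere in mm9 (%) and the vertical axis the authors' mean count per FPKM and kilobase, as a percentage of that of other genes of like length, with lines at 100% and 50%. Members well under the typical value are labelled, and the 6 below 50% have from 41.3% (Ndufb4) to 100% (Atp5g2) of their windows elsewhere.

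The row of Ndufs5 was the 1 near-zero row among expressed complex I genes. It stood at 4.86 FPKM in mutant 2 and 2.60 FPKM in mutant 3, and below 0.001 FPKM in mutant 1 and in all 3 controls. The authors' deposited table gives a mean count of 0 in both groups. BC002163, a row on chromosome 16 from 42955692 to 42956192 that covers the copy printed above, had 225, 145 and 195 FPKM in mutants and 194, 160 and 167 FPKM in controls. GENCODE annotates it as a transcribed processed pseudogene. A further BC002163 row at the Ndufs5 locus itself had 81.6, 96.5 and 70.3 FPKM in mutants and 70.8, 105 and 109 FPKM in controls, with an estimate not marked as successful in any of the 6 libraries. Summed, the 3 rows gave 274 ± 30.8 FPKM in mutants and 269 ± 6.57 FPKM in controls (SD, n = 3 each), and the groups overlap. The fitted log2 fold change of the Ndufs5 row, 3.46 (unadjusted p = 0.038), depends on the pseudocount, being 1.47 with a pseudocount of 1 and 5.65 with 0.01. Without mutant 1 this row passed the test over all genes in limma, with adjusted p = 0.026, the range over the other alternatives being 0.61 to 0.99.

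Levels of the members ran from 0 to 1950 FPKM as means over the 6 libraries. The median member of each complex stood at 197 FPKM in complex I, 407 in complex II, 463 in complex III, 282 in complex IV and 493 in complex V. Together the 85 members made up 5.60%, 5.09% and 5.22% of all FPKM in mutants 1 to 3 and 5.15%, 5.37% and 4.88% in controls 1 to 3. As a share of all FPKM the groups overlap, at 5.30 ± 0.27% in mutants and 5.13 ± 0.24% in controls (SD, n = 3 each).

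**Figure D2:**
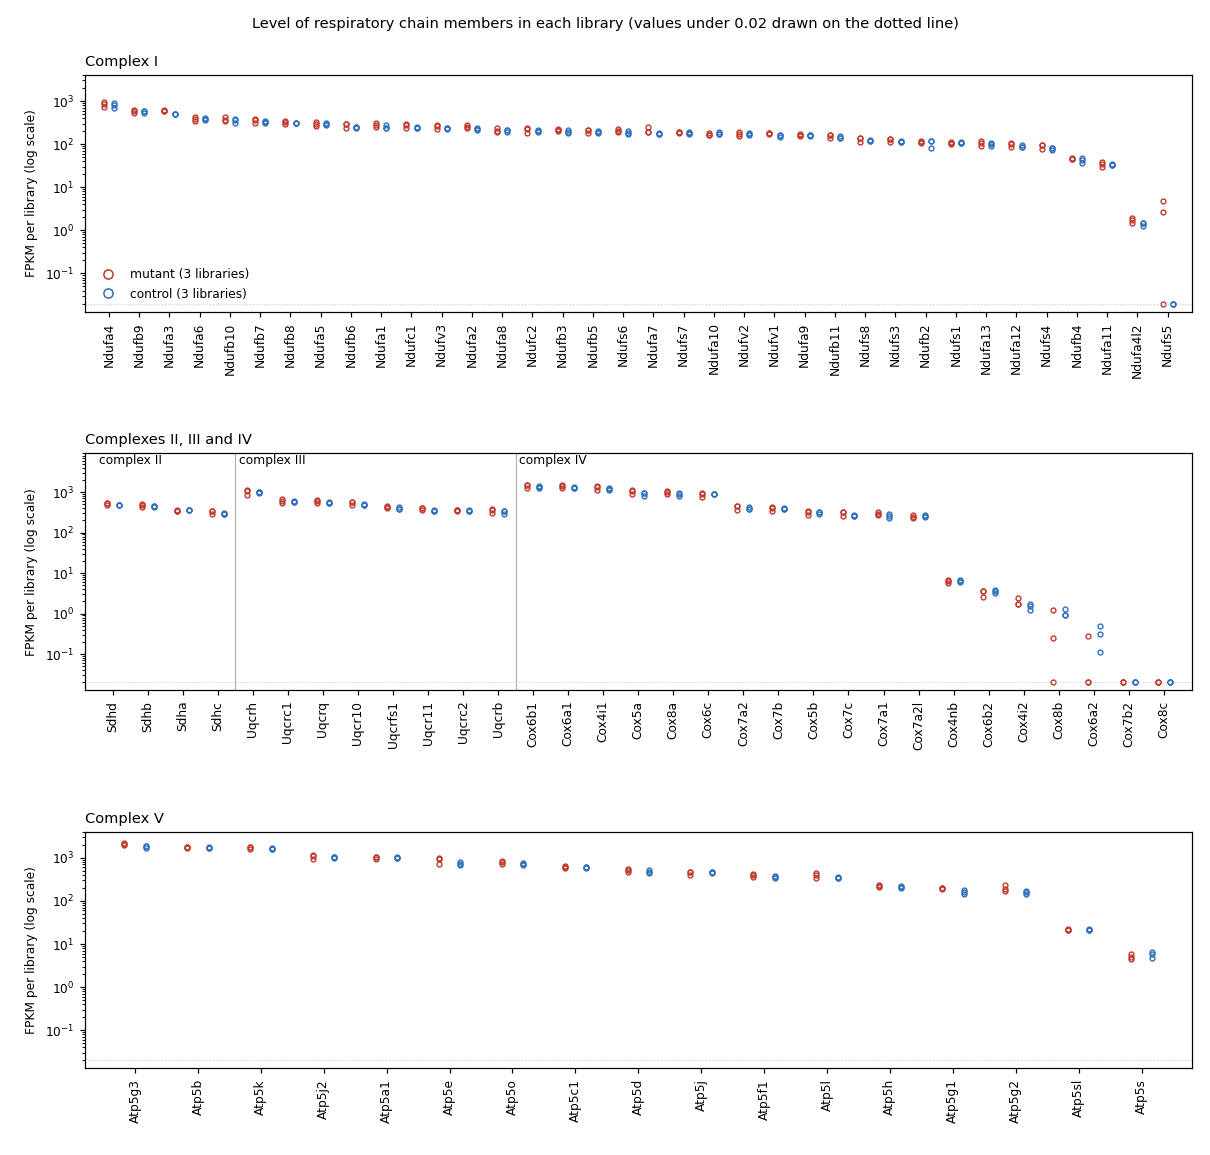
FPKM of 84 of the members in each library on a log scale, ordered by mean level within its complex, with mutants (red, left of each tick) and controls (blue, right of each tick). Most members lie above 30 FPKM with both groups close together, while Ndufs5, Cox8b, Cox6a2, Cox7b2 and Cox8c reach the dotted line, where values under 0.02 are drawn.

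Over all members the median log2 fold change was 0.09, against −0.05 over the 15864 rows tested, of which 38.7% were positive. The rows tested reach down to a mean of 0.1 FPKM, and other rows of at least 30 FPKM are set beside the members below, by length. The members' median was 0.11 in complex I, 0.10 in complex II, 0.11 in complex III, 0.07 in complex IV and 0.08 in complex V. No member passed an adjusted p of 0.05 in limma, the smallest being 0.79, nor did any other row (0.0% of all rows). At an unadjusted p under 0.05, 4 of 83 members were higher in mutants (4.82%), where the share over all rows was 1.49%, and 0 were lower, where it was 4.32%. The 4 were Ndufa3, Atp5g1, Ndufs5 and Ndufv1. Of these, Ndufs5 was the row below 0.001 FPKM in 4 libraries, and Atp5g1 had 73.8% of its windows elsewhere. The calls of Ndufs5 and Atp5g1 are therefore uncertain, and the share of 4.82% includes them. With trimmed mean scaling, 437 rows of the whole table were higher and 466 lower at this threshold, against 237 and 685 without it, and 76 of the 83 members were positive, where 47.9% of all rows were. With quantile normalization 51 members were positive, with a median of 0.04, where 46.9% of all rows were positive and 360 rows were higher and 431 lower at an unadjusted p under 0.05.

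A limma fit with the replicate number as a block moved the members' lower calls. With it, 5 members were higher at an unadjusted p under 0.05 (2.81% of all rows) and 2 lower (5.09% of all rows), and again none passed adjustment, where 0.0126% of all rows did. With the block in limma, Atp5g2 (unadjusted p = 0.034) and Cox7a1 (unadjusted p = 0.049) entered the higher calls, and Ndufv1 left them (unadjusted p = 0.052). Those lower with the block in limma were Cox6a2 (unadjusted p = 0.018) and Cox8b (unadjusted p = 0.032), both near 0 FPKM, and each of these had an adjusted p of 0.61. Without the block the limma p was 0.076 for Atp5g2, 0.14 for Cox7a1, 0.084 for Cox6a2 and 0.087 for Cox8b.

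All 3 mutants lay above all 3 controls for 5 members, Ndufa3, Ndufa7, Ndufv1, Atp5g1 and Atp5g3, which is 6.02% of the tested members and was so for 3.13% of all rows. No member had all mutants below all controls, as 9.92% of all rows did. Ndufa7, an accessory subunit of complex I, was singled out after its values were seen and had 187, 193 and 248 FPKM in mutants and 177, 173 and 170 FPKM in controls.

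**Figure D3:**
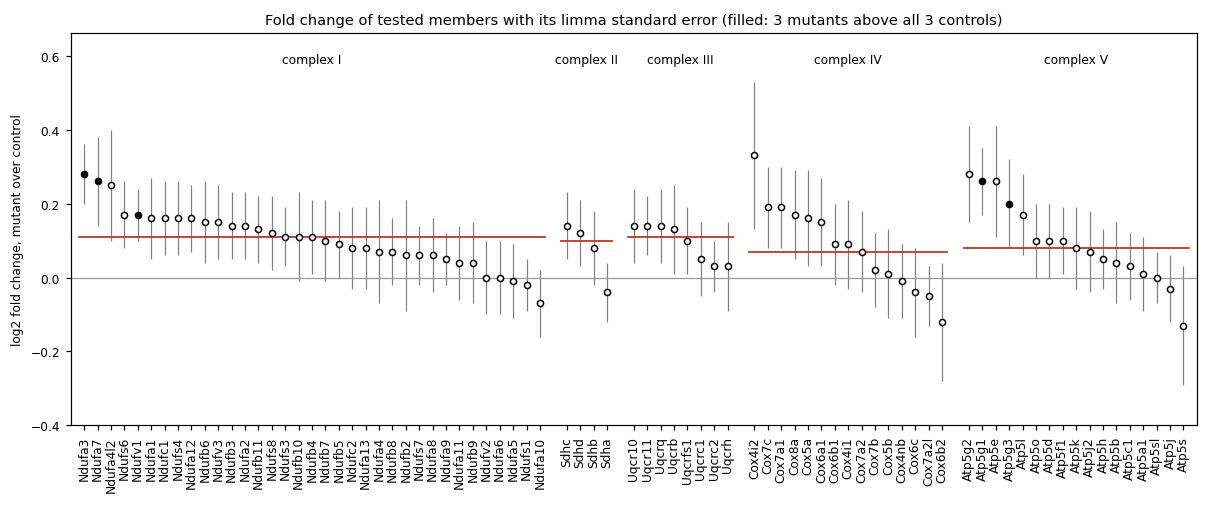
Log2 fold change of mutants over controls for 79 of the tested members, with the limma standard error as bars, grouped by complex and ordered by size. Red lines mark the complex medians, which lie between 0.07 and 0.11, and filled circles the 5 members whose 3 mutants lie above all 3 controls. Ndufs5, Cox6a2 and Cox8b, near 0 FPKM, are outside the plot.

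The positive values came from mutants 1 and 3. Relative to each gene's control mean on the log2 scale, the median member stood at 0.16 in mutant 1, −0.03 in mutant 2 and 0.15 in mutant 3, and at −0.05, 0.04 and 0.00 in controls 1 to 3. Of 83 members, 76 were above the control mean in mutant 1, 26 in mutant 2 and 75 in mutant 3. The medians of mutant 2 were −0.03, −0.05, −0.01, −0.04 and −0.02 for complexes I to V, within the range of the controls except in complex II, where it lay below them. All tested rows had medians of −0.04, −0.02 and −0.07 in mutants 1 to 3. Members stood lowest in mutant 2 among mutants, so leaving it out raises their counts by construction. Without mutant 2, 15 members were higher at an unadjusted p under 0.05 in limma, where 1.84% of all rows were. The 2 other mutants lay above all controls for 55 members, where 7.96% of all rows did so. Both counts describe the libraries and are no further sign of a difference between groups. The complex medians without mutant 2 were 0.18, 0.17, 0.16, 0.13 and 0.15 for complexes I to V. Without control 1, control 3 or mutant 3, 1 member was higher at that threshold. The 0 lower calls became 1 without mutant 1, mutant 3 or control 3.

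**Figure D4:**
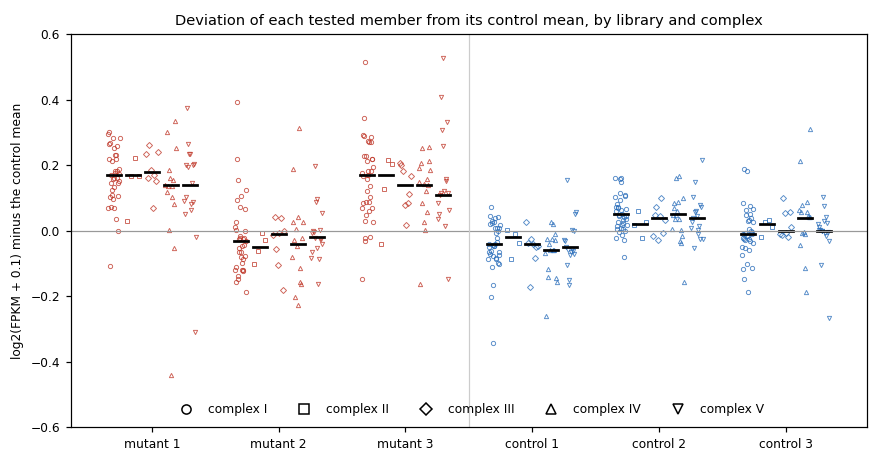
Each symbol is a tested member in 1 library, as its log2(FPKM + 0.1) minus its control mean, with mutants in red on the left and controls in blue on the right, and black bars for the median of each complex. The bars of mutants 1 and 3 lie between 0.11 and 0.18 and those of mutant 2 between −0.05 and −0.01. Of 498 points, 9 lie outside the axis.

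Short transcripts as a class stood higher in the same libraries. Among rows of at least 30 FPKM, members with a main transcript under 1000 bases had a median log2 fold change of 0.11 (n = 52), and other genes of that length 0.09 (n = 568). Between 1000 and 1999 bases the medians were 0.05 for members (n = 18) and 0.06 for other genes (n = 1025), and from 2000 bases they were −0.01 for both (n = 4 and n = 1466). The class medians thus fell with length in both sets. Between 1000 and 1999 bases, the library medians relative to the control mean were 0.17, −0.05 and 0.08 for members in mutants 1 to 3. For other genes of that length they were 0.08, 0.03 and 0.07. For rows under 1000 bases, the library medians relative to the control mean were 0.18, −0.03 and 0.18 for members and 0.09, 0.00 and 0.17 for other genes in mutants 1 to 3. The shares of positive values were 94.2% of members and 78.7% of other genes in that class. Over genes, Spearman's rho between length and log2 fold change was −0.46 for 74 members and −0.43 for 3059 other rows, as a description, since all points share the same 6 libraries. Pearson's correlation with log2 length was −0.45 for members and −0.21 for other rows. The part of transcript length in the members' shift was not tested further.

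**Figure D5:**
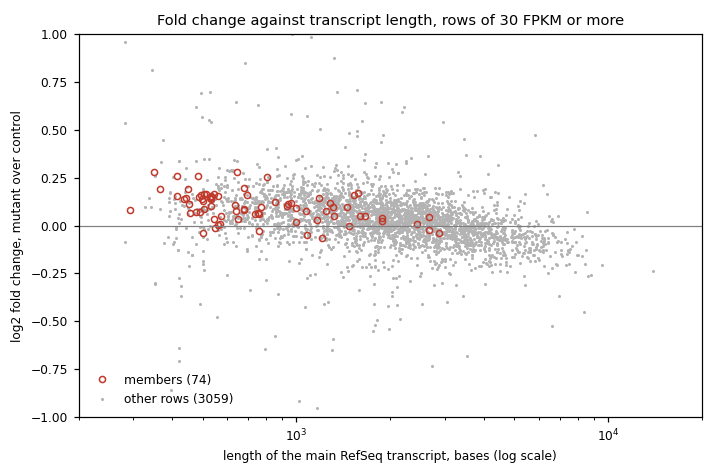
Log2 fold change of mutants over controls against the length of the main RefSeq transcript (log scale), for 74 members (red) and 3059 other rows (grey) of at least 30 FPKM. Members lie inside the cloud of other short transcripts, and both sets drop towards 0 with length. A further 43 other rows are outside the axes.

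Complex I takes electrons from NADH. The core subunits named here averaged 178 ± 6.14 FPKM (Ndufv1) and 106 ± 4.78 FPKM (Ndufs1) in mutants and 158 ± 6.99 FPKM (Ndufv1) and 107 ± 1.85 FPKM (Ndufs1) in controls (SD, n = 3 each). Ndufv1, which holds the flavin and the NADH site (chromosome 19, 4007504 to 4012725), had 178, 172 and 184 FPKM in mutants and 150, 163 and 161 FPKM in controls. Each mutant was above each control, with a log2 fold change of 0.17 (SE 0.07, unadjusted p = 0.048). Ndufs1, the large iron-sulfur subunit, had 110, 101 and 106 FPKM in mutants and 108, 109 and 105 FPKM in controls, so the groups overlap.

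Accessory subunits of complex I covered a wider range. Ndufa3, a small subunit of the membrane arm (chromosome 7, 3568974 to 3571763), had 602, 582 and 634 FPKM in mutants and 507, 501 and 491 FPKM in controls. Its groups were well apart, at a log2 fold change of 0.28 (SE 0.08, unadjusted p = 0.012, adjusted p = 0.79). With 1 library left out it ran from 0.25 to 0.31. In the authors' deposited table its log2 fold change was 0.33 with an unadjusted p of 0.016 and an adjusted p of 1.0. Its transcript is 349 bases long and has no window elsewhere in the genome, while its count in the authors' deposited table was 210% of that typical for its FPKM and length. The typical value per FPKM and kilobase was itself low there, at 3.85 from 67 genes, against 8.8 at 414 bases. The percentage is therefore uncertain.

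Ndufa4 was the most abundant member named for complex I, with 741, 852 and 936 FPKM in mutants and 693, 806 and 910 FPKM in controls. Its protein is now assigned to complex IV, and its 2 groups span nearly the same range. Ndufb9, an accessory subunit of the membrane arm, followed at 579 ± 58.5 FPKM in mutants and 562 ± 28.8 FPKM in controls (SD, n = 3 each). Ndufa10, an accessory subunit related to nucleoside kinases, had the lowest fold change of complex I, with 185, 162 and 159 FPKM in mutants and 170, 189 and 170 FPKM in controls (log2 −0.07, unadjusted p = 0.49). Mutant 1 lay within the controls there, and the other mutants below them. Ndufa4l2, a relative of Ndufa4 known to respond to low oxygen and singled out after its values were seen, was near background at 1.73 ± 0.202 FPKM in mutants and 1.43 ± 0.137 FPKM in controls.

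Complex II, succinate dehydrogenase, links the citric acid cycle to the chain. Sdha, the flavoprotein that oxidises succinate, had 368, 336 and 351 FPKM in mutants and 361, 365 and 356 FPKM in controls. Sdhb, its iron-sulfur partner, had 500, 426 and 486 FPKM in mutants and 419, 464 and 453 FPKM in controls. Both groups overlapped in these genes, with log2 fold changes of −0.04 and 0.08. The membrane anchors Sdhc and Sdhd gave 0.14 and 0.12. Sdhc had 346, 295 and 344 FPKM in mutants and 294, 292 and 303 FPKM in controls, and Sdhd had 541, 472 and 554 FPKM in mutants and 469, 490 and 485 FPKM in controls. In each anchor, mutants 1 and 3 were above all controls and mutant 2 was within their range. Quantile normalization took the complex II median to −0.01.

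Complex III moves electrons from ubiquinol to cytochrome c, and all 8 of its members had positive log2 fold changes, between 0.03 and 0.14. Uqcrh, the hinge protein, was the most abundant, with 1100, 873 and 1070 FPKM in mutants and 956, 984 and 1030 FPKM in controls. The core protein Uqcrc1 had 666, 545 and 619 FPKM in mutants and 576, 574 and 608 FPKM in controls. In both, mutant 2 was the lowest of the 6 libraries and mutants 1 and 3 the highest. Uqcrfs1, the Rieske iron-sulfur protein, averaged 426 ± 19.4 FPKM in mutants and 399 ± 25.9 FPKM in controls (SD, n = 3 each). The small subunits Uqcr10 and Uqcr11 gave the smallest p-values of the complex. Uqcr10 had 540 ± 49.6 FPKM in mutants and 488 ± 8.07 FPKM in controls (log2 0.14, unadjusted p = 0.19). Uqcr11 had 388 ± 22.3 FPKM in mutants and 353 ± 11.1 FPKM in controls (log2 0.14, unadjusted p = 0.14).

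Complex IV, cytochrome c oxidase, surrounds a core encoded in mitochondrial DNA with nuclear subunits, several of which come as a common isoform and a tissue-restricted one. The common form was the far more abundant one in the duodenum for subunits 4, 6a, 6b, 7b and 8, but not for 7a. Cox4i1 stood at 1340, 1150 and 1390 FPKM in mutants and 1160, 1220 and 1270 FPKM in controls. Cox4i2, the form known for lung and for low oxygen, had 2.43, 1.73 and 1.68 FPKM in mutants and 1.24, 1.56 and 1.76 FPKM in controls. For both genes the groups overlap.

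Cox6a1 averaged 1410 ± 126 FPKM in mutants and 1270 ± 38.2 FPKM in controls (SD, n = 3 each). Its heart and skeletal muscle counterpart Cox6a2 had 0.275, 0 and 0 FPKM in mutants and 0.482, 0.319 and 0.115 FPKM in controls. The overlap of mutant 1 with the controls and the low level leave its log2 fold change of −1.27 without a call. Cox6b1 averaged 1410 ± 108 FPKM in mutants and 1320 ± 51.8 FPKM in controls. Cox6b2, known from testis, had 2.58, 3.64 and 3.60 FPKM in mutants and 3.60, 3.76 and 3.26 FPKM in controls, again with overlap.

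For subunit 7a, both isoforms were abundant. Cox7a1, the form known from heart, skeletal muscle and brown fat (chromosome 7, 30969189 to 30971049), had 282, 319 and 279 FPKM in mutants and 260, 288 and 225 FPKM in controls. Cox7a2, the form of most other tissues, had 444, 368 and 445 FPKM in mutants and 383, 390 and 424 FPKM in controls. The 2 were thus of the same order in every library, and neither differed between groups beyond the overlap of its libraries. Skeletal muscle markers summed to 10.6, 7.42 and 10.3 FPKM in mutants and 7.51, 10.7 and 9.70 FPKM in controls, far below Cox7a1. Cox7a1 has no 50-base window elsewhere in mm9, and its count in the authors' deposited table was 226% of that typical for its FPKM and length of 366 bases. As for Ndufa3, the typical value was low at this length, at 3.77 from 75 genes, so the percentage is uncertain.

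Cox7b averaged 395 ± 42.7 FPKM in mutants and 388 ± 11.4 FPKM in controls (SD, n = 3 each), while Cox7b2 was listed at 0 in all 6 libraries and was not tested. Cox8a averaged 1000 ± 82.3 FPKM in mutants and 892 ± 77.6 FPKM in controls. Of the other subunit 8 isoforms, Cox8c was listed at 0 in all libraries and not tested. Cox8b, known from heart and skeletal muscle, had 0, 0.253 and 1.2 FPKM in mutants and 0.926, 0.927 and 1.32 FPKM in controls, so mutant 3 lies among the controls. Cox7c, a small subunit with 48.2% of its windows elsewhere, had 332, 259 and 314 FPKM in mutants and 258, 260 and 271 FPKM in controls (log2 0.19, unadjusted p = 0.12). The authors' deposited table held 22% of the count typical for that FPKM, so the 2 deposited values do not match and the level is uncertain. How reads that match several places were assigned was not tested. Cox4nb matched the name rule but encodes a subunit of the endoplasmic reticulum membrane complex. It was singled out after its values were seen and had 6.33 ± 0.631 FPKM in mutants and 6.34 ± 0.276 FPKM in controls.

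Complex V holds the catalytic F1 head, a rotor and a membrane ring of c subunits. Atp5b, the catalytic beta subunit, had 1790, 1720 and 1830 FPKM in mutants and 1690, 1760 and 1730 FPKM in controls. The alpha subunit Atp5a1 had 1070, 949 and 1030 FPKM in mutants and 985, 1010 and 1020 FPKM in controls. The groups overlap in both, with log2 fold changes of 0.04 and 0.01. The c subunit is encoded by 3 genes whose mature protein is the same. Atp5g3 was the most abundant member of all, with 2130, 1940 and 2170 FPKM in mutants and 1720, 1870 and 1850 FPKM in controls. Each mutant lay above each control, at a log2 fold change of 0.20 (SE 0.12, unadjusted p = 0.14).

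Atp5g1 (chromosome 11, 95934106 to 95937008) had 196, 187 and 202 FPKM in mutants and 147, 181 and 163 FPKM in controls, also without overlap. Its log2 fold change was 0.26 (SE 0.09, unadjusted p = 0.030, adjusted p = 0.79). Atp5g2 had 186, 168 and 228 FPKM in mutants and 141, 165 and 170 FPKM in controls, so mutant 2 lies within the controls (log2 0.28, SE 0.13). Both genes have most of their sequence elsewhere in the genome, 73.8% of windows for Atp5g1 and 100% for Atp5g2, so their levels are uncertain. In the authors' deposited table the mean count of Atp5g2 was 55.0 in mutants and 49.2 in controls, and that of Atp5g3 was 19900 in mutants and 16800 in controls.

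Atp5j, coupling factor 6 of the stalk, had 477, 407 and 461 FPKM in mutants and 457, 457 and 454 FPKM in controls (log2 −0.03). Atp5s, named as a coupling factor, lay far lower, at 4.49, 5.81 and 5.03 FPKM in mutants and 5.79, 6.5 and 4.63 FPKM in controls. Both overlapped between groups.

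Of the members, 7 have several RefSeq transcripts in the deposited tables. The main transcript held at least 89.4% of FPKM in every library for Atp5g1, Ndufs6, Ndufv3, Cox7a2l and Atp5c1, the last 4 singled out after their values were seen. Ndufs1 was split over 4 transcripts, of which NM_145518 held 56.4%, 53.8% and 62.8% in mutants and 54.9%, 57.2% and 61.3% in controls. This main share of Ndufs1 thus did not separate the groups. That of NM_001160039 did, at 16.2%, 16.2% and 14.0% in mutants and 11.4%, 11.2% and 12.3% in controls. NM_001160040 and NM_001160038 overlapped. For Ndufs6, NR_033306 held 5.03%, 5.19% and 4.95% in mutants and 3.68%, 4.31% and 4.08% in controls, also without overlap. The main share of Ndufs6 is the remainder, so it was lower in each mutant than in each control, which is not a separate result. The main shares of Atp5g1, Ndufv3, Cox7a2l and Atp5c1 overlapped. Differences in share were not tested, and how often shares separate the groups in other genes is not given. For Cox6b2, near 3 FPKM, the share of NM_183405 was 57.8%, 100% and 32.9% in mutants and 73.0%, 100% and 100% in controls, and at this level the split is not read further.

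The authors' deposited table, their own comparison with DESeq, gave a p-value for 82 members, of which 75 had a positive log2 fold change, where 49.8% of the 18541 genes with a p-value did. The authors' median was 0.15 for members and 0.00 for all those genes. No member passed adjustment there and 2 passed an unadjusted p of 0.05, both higher in mutants, Ndufa3 and Ndufa7, where 0.696% of all genes did so. The sign was the same as in limma for 74 members.

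Genes around the chain were described by lists. None of their genes passed adjustment. Of all rows tested, 38.7% were positive, with a median of −0.05. Of 4 subunits that the name rule misses, 3 had positive log2 fold changes, with a median of 0.11. Cyc1, cytochrome c1 of complex III, had 554, 503 and 520 FPKM in mutants and 473, 507 and 469 FPKM in controls (log2 0.12). Atpif1, the inhibitor of ATP synthase, had 701, 729 and 800 FPKM in mutants and 660, 710 and 665 FPKM in controls (log2 0.13). Cyc1 in mutant 2 lay within the controls, and both genes overlap between groups. No row of the mitochondrially encoded subunits was found under the symbols searched.

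Of 30 tested assembly factors, 21 were positive, with a median of 0.05. Sdhaf2, which attaches flavin to Sdha, averaged 17.4 ± 0.704 FPKM in mutants and 15.9 ± 0.517 FPKM in controls, and Cox15, an enzyme of heme a synthesis, 26 ± 1.48 FPKM in mutants and 23.7 ± 1.38 FPKM in controls (SD, n = 3 each). Electron carriers and entry enzymes had 5 of 7 positive and a median of 0.09, with Etfb and Etfa, the electron transfer flavoprotein, at log2 0.17 and 0.10. Citric acid cycle genes had 7 of 17 positive and a median of 0.00, with Suclg1, of succinyl-CoA ligase, at 0.08 and Pdha1, of pyruvate dehydrogenase, at −0.07. Carriers and import genes had 11 of 14 positive and a median of 0.06. In that list Hspe1, a matrix chaperonin, stood at 0.18, and Slc25a4, the ADP/ATP carrier of muscle and heart, at −0.26 with an unadjusted p of 0.047, the single list gene of these groups past that threshold.

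Regulators of mitochondrial genes had 2 of 14 positive, where 38.7% of all rows were. Their median was −0.06, near the median of −0.05 over all rows. Yy1, a zinc finger factor, had 28.5, 28.5 and 26 FPKM in mutants and 30.6, 31.0 and 30.3 FPKM in controls (log2 −0.15, unadjusted p = 0.064). Each mutant was below each control, as for 9.92% of all rows. Esrrg, an orphan nuclear receptor of oxidative metabolism, had 2.12, 1.74 and 2.21 FPKM in mutants and 3.08, 2.00 and 2.56 FPKM in controls (log2 −0.30). Neither passed the test. In the lists above, each mutant lay above each control for Sdhaf2 and Mdh2, as for 3.13% of all rows, and below each control for Pdha1. Mdh2, of the citric acid cycle list, was singled out after its values were seen.

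Promoters of the members were read from RefSeq (GRCm38.p6), from 250 bases before to 50 after the start, for 69 members with 75 promoters. Motif letters were searched on both strands. The NRF1 motif GCGCATGCG was in 10.7% of member promoters and 1.75% of all 32851 promoters. The GABPA motif CCGGAAG was in 21.3% and 8.86%, and the YY1 motif AAGATGGC in 16.0% and 2.75%. No motif contains another, and member promoters had 57.5% G and C against 53.8% in all. These matches are a description of letters, and binding was not measured. The promoters of Atp5j, Atp5l and Cox6a1 each hold motifs of more than 1 kind in the 250 bases before the start. Atp5j and Cox6a1 are shown as examples, with their motifs in capitals. For Atp5j (minus strand, chr16:84834977-84835226) these are YY1 and then GABPA. For Cox6a1 (minus strand, chr5:115348959-115349208) they are NRF1, as overlapping matches on both strands, and then GABPA on the opposite strand.

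Atp5j promoter: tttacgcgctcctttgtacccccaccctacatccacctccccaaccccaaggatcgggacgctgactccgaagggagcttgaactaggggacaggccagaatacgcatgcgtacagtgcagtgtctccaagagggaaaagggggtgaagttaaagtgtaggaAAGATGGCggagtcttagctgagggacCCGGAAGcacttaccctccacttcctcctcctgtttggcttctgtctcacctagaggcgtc
Cox6a1 promoter: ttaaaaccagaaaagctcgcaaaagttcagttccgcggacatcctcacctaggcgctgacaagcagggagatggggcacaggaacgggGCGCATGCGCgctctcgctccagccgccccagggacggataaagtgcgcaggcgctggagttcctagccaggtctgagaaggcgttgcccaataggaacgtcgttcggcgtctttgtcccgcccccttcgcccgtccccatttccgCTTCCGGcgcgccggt

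Other cell types moved between libraries, and their part in the members' values was not tested. Enterocyte markers, abundant in every library, had 8 of 10 positive, where 38.7% of all rows were, and a median of 0.09. Their summed level was 27500, 32100 and 23300 FPKM in mutants and 20000, 31700 and 21700 FPKM in controls, so it was highest in mutant 2 among mutants and in control 2 among controls. The members' sum was lowest in mutant 2 among mutants and highest in control 2 among controls. Fabp2 and Apoa1, of lipid handling, had log2 fold changes of 0.34 and 0.17. Smooth muscle markers were all negative, 10 of 10 with a median of −0.44, and 9 had an unadjusted p under 0.05, where 4.32% of all rows were lower at that threshold. They summed to 647, 557 and 717 FPKM in mutants and 738, 872 and 1000 FPKM in controls, without overlap. Myh11, smooth muscle myosin, had 52.3, 49.5 and 58.0 FPKM in mutants and 70.6, 73.5 and 86.1 FPKM in controls, and Synpo2 had a log2 fold change of −0.48.

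Pancreatic acinar markers varied most. They summed to 4070, 4170 and 17000 FPKM in mutants and 235, 821 and 15600 FPKM in controls, all 22 rows were positive with a median of 3.24, and 1 had an unadjusted p under 0.05, where 1.49% of all rows were higher. Prss1 and Ctrc, pancreatic proteases, were listed at 0 in 2 and 1 of the 3 controls. When these rows were left out of the library totals, 60 of 83 members were positive, with a median of 0.05. Over all rows in that fit, 28.8% were positive, with a median of −0.09. T cell markers were positive in 8 of 8 (median 0.30), with Cd7 at 0.36 and Cd8a at 0.28, and 1 with an unadjusted p under 0.05 (1.49% of all rows). Proliferation markers were negative in 5 of 8 (median −0.13), with Bub1 at −0.31 and Mki67 at −0.29, both with an unadjusted p under 0.05 (4.32% of all rows), and summed to 133, 136 and 135 FPKM in mutants and 159, 145 and 138 FPKM in controls. Adipocyte markers had 4 tested genes with a median of −0.25, with Cfd at −1.28 (limma unadjusted p = 0.021) and Cidec at 0.25. Skeletal muscle markers had 3 with a median of −0.27, with Ckm at −0.27 and Acta1 at 0.82 (limma unadjusted p = 0.012). At an unadjusted p under 0.05, 4.32% of all rows were lower and 1.49% higher. Of the parietal cell markers only Gif was tested, at 0.39, and the list summed to 0.579, 0.0772 and 0.197 FPKM in mutants and 0.410, 0.0943 and 0.116 FPKM in controls.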

How the data were processed

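Duodenal RNA from 3 mutant and 3 control mice was sequenced from libraries made with a TruSeq kit from RNA with an integrity number above 8, per the labels' protocols. The submitters' processing notes name TopHat, Cufflinks, DESeq, CASAVA 1.8.2 and the build mm9. Not given in the sources used here were read length, counter and strand setting. The authors' deposited gene and transcript tables hold FPKM, with transcript coverage, a signal of read depth, beside it. Their comparison table, as deposited by the authors, holds group means of counts divided by size factors (a signal), the fold as a ratio, its log2 value, and p-values, unadjusted and adjusted.

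From these, log2(FPKM + 0.1) was fitted for rows with a mean of at least 0.1 FPKM with limma 3.58.1 (R 4.3.3, trended prior variance, Benjamini-Hochberg, threshold 0.05). The filter kept 15864 of 23699 rows and removed 7835. Fold changes are mutant minus control on that scale, which understates changes of low genes. The fit was tested on simulated data. FPKM carries no counts, and depth was read from the widths of the authors' confidence intervals.

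Values of 1 member are not reported here. The members were found by symbol, and the members and gene lists were chosen with earlier results of these data known. Members named with values were, in each complex, the 2 most abundant and the 2 with the smallest p in each direction, core subunits, isoform pairs, those at 0 in a library and, in each list, the 2 with the smallest p. Same-numbered mutants and controls deviated together (correlations of 0.106, 0.207 and 0.389 over 15864 rows, with unlike-numbered pairs from −0.275 to 0.127, mutant 2 with control 1 being above the lowest like-numbered pair). Each like-numbered value was above the preset 0.1, so a fit with the replicate number from the titles as a block was also made. The labels used name no pairs, and limma p-values are from the fit without the block unless stated. Windows of 50 bases were matched to NCBIM37 (mm9) with GENCODE transcripts. The transcript compared with GENCODE differed from the RefSeq one by over 100 bases for 11 members.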

Additional observations from a re-analysis of the deposited data

How the results depend on the processing

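The absence of a member past adjustment held under every alternative fit, except without mutant 1, when the near-zero Ndufs5 row passed (0 to 1 members with 1 library left out). The members' median stayed between 0.04 (quantile normalization) and 0.15 (without mutant 2), and that of complex II fell to −0.01 with quantile normalization. Members higher at an unadjusted p under 0.05 numbered 2 with quantile normalization (360 of all 15864 rows), 2 with totals that leave out acinar markers (120 rows) and 2 with limma without a trend (209 rows), against 4 (237 rows) as reported. With 1 library left out they numbered 1 to 15, where 187 to 362 of all rows were higher. Lower ones numbered 2 with the replicate block (807 rows) and 0 to 1 with 1 library left out (390 to 895 rows). The block changed no other call than those given with it. With 1 library left out, members whose groups were apart numbered 5 to 55 on the higher side and 0 to 3 on the lower side. The 55 were without mutant 2, where 7.96% of all rows were apart on that side, against 3.13% with all libraries. Fewer libraries make such separation easier for every row. The share over all rows is not given for the other left-out libraries or for the lower side of these fits. With 1 library left out, the complex V median was 0.05 to 0.15. Leaving out members at 0, or members copied over most of their length (chosen after seeing the data), kept every median within the spread of libraries. The cause of these shifts was not tested.

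Of 645 recomputed values of named members, 38 changed sign, all of them small. With quantile normalization these included Atp5b (−0.02), Ndufb9 (−0.08), Atp5a1 (−0.06), Uqcrh (−0.01), Sdhb (−0.03), Cox6b1 (−0.02), Cox4i1 (−0.06), Cox7a2 (−0.01), Uqcrc1 (−0.04) and Cox7b (−0.04). With totals without acinar markers they were Atp5b (−0.00), Ndufb9 (−0.01), Atp5a1 (−0.03), Uqcrh (−0.01) and Cox7b (−0.02). With trimmed mean scaling Ndufs1 was 0.02, Sdha 0.00 and Atp5j 0.01, and in the authors' deposited table Ndufs1 was 0.02, Sdha 0.02 and Atp5j 0.04. With 1 library left out, those whose sign changed included Ndufb9 (−0.03 to 0.12), Atp5a1 (−0.03 to 0.06), Ndufa4 (−0.03 to 0.17), Uqcrh (−0.03 to 0.14), Cox6b2 (−0.21 to 0.03), Uqcrc1 (−0.01 to 0.13), Cox7b (−0.04 to 0.11), Ndufs1 (−0.05 to 0.01) and Atp5j (−0.07 to 0.04).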
